A study of Mus musculus with 8 samples.

Results

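Tbr1-positive retinal ganglion cell (RGC) nuclei were chosen from the counts of a handful of genes in single-nucleus RNA sequencing of sorted mouse retinal nuclei. Each captured RNA molecule was counted once through its unique molecular identifier (UMI). A nucleus was a barcode with at least 2000 UMIs and at most 5% of them from mitochondrial genes. It was RGC-gated when it held at least 2 UMIs of Rbpms and Slc17a6 together and at most 1 UMI of Gad1, Gad2 and Slc6a9 together. A Tbr1-positive nucleus was an RGC-gated nucleus with at least 2 Tbr1 UMIs, at most 4 Foxp2 UMIs, at most 4 Cartpt UMIs and fewer than 2 of Opn4, Eomes and Tbx20 detected. Of 12695972 barcodes listed, 33687 met the first pair of limits, 23059 of these were RGC-gated, and 75 were Tbr1-positive, which is 0.325% of the RGC-gated nuclei. The other 22984 RGC-gated nuclei were the comparison. The genes named in these limits chose the nuclei, so their levels describe the choice and were not tested.

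Tbr1 is a T-box transcription factor, a protein that binds DNA and sets which genes a neuron uses. In the retina it marks a small number of RGC types whose dendrites lie in the OFF part of the inner plexiform layer, the layer that answers to light decrements. The best known are the J-RGCs, which carry the adhesion molecule Jam2 and have lopsided dendrites, and the sustained OFF alpha cells. Sorcs3, a sorting receptor, and Cdh8, a cell adhesion cadherin, are known as genes that depend on Tbr1 in such cells.

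The retinae came from mice at postnatal day 120, with 6 retinae pooled in each of 8 libraries and nuclei sorted with antibodies against NeuN and RBPMS. The 4 control libraries (replicates 1 to 4) were Piezo2f/f, with both Piezo2 copies floxed and no cre, and were labelled female. The 4 cKO libraries (replicates 10 to 13) were Olig2-cre;Piezo2f/f, in which cre is driven by the Olig2 locus, the floxed exons are lost in cells with a history of Olig2 activity, and Olig2 itself is left with 1 working copy. Their labels gave no sex, while the study's methods state that female mice were used. The floxed alleles are therefore shared by all libraries, while cre and the loss of an Olig2 copy come together. Libraries are pools of several animals, so permutation p-values rest on the spread between pools. The edgeR p-values rest on a spread between pools that is estimated in part from other genes. They can be far smaller than the library values of a single gene would give.

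The control libraries held 4, 17, 7 and 8 Tbr1-positive nuclei among 2671, 3632, 3092 and 1619 RGC-gated nuclei. The cKO libraries held 7, 8, 10 and 14 among 2645, 3640, 3690 and 2070. Control replicate 1 was thus the thinnest library, with 32013 UMIs in all its Tbr1-positive nuclei, against 84404 to 265911 in the others. With so few molecules, 3 UMIs of a gene already amounted to 93.7 CPM there, where CPM are counts scaled to a sum of 1000000 UMIs, and to 11.3 to 35.5 CPM elsewhere. Intervals and such floors cover counting error only. Tbr1-positive nuclei were deeper than their neighbours in every library, with a median of 7754 to 14145 UMIs against 4843 to 10919. Library pairs shared 1 to 11 barcodes among nuclei. Tbr1-positive barcodes matched a nucleus of another library 2 times, and no such match was with a Tbr1-positive nucleus there. No doublets were removed, and 4 of the 75 nuclei (5.33%) lay among the highest doublet scores, against 3.38% of all RGC-gated nuclei.

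**Figure D1:**
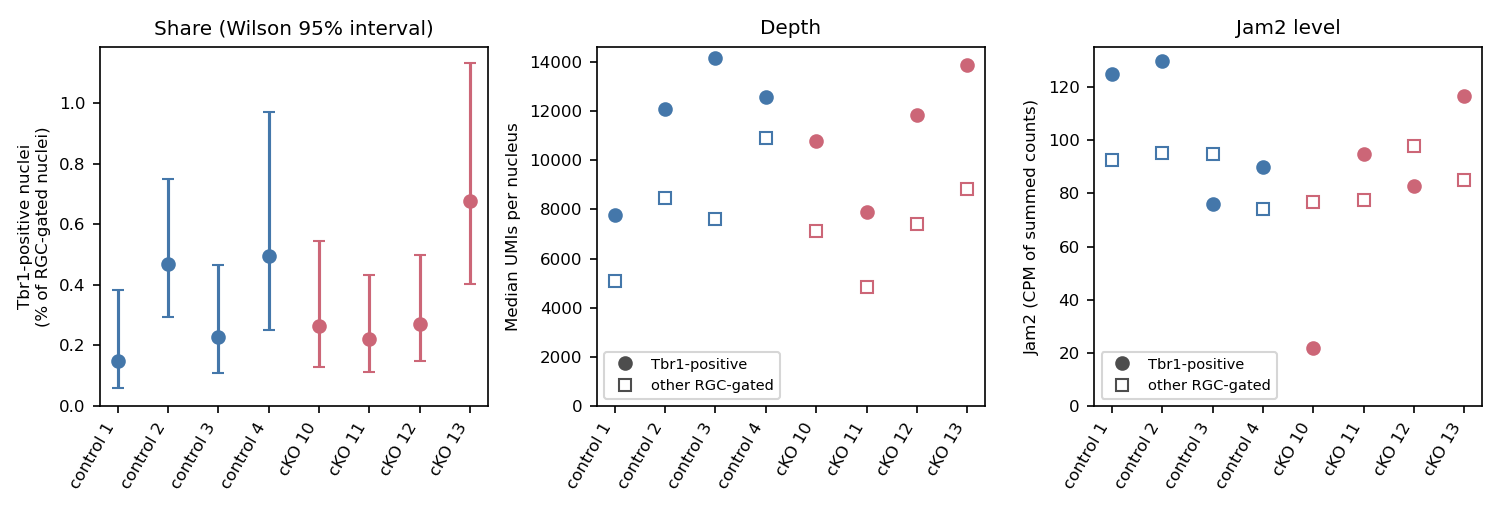
Tbr1-positive nuclei in each of the 8 libraries, control (1 to 4) and cKO (10 to 13). The left panel shows their share of RGC-gated nuclei in percent with 95% Wilson intervals, the middle panel the median UMIs per nucleus and the right panel Jam2 in CPM, with filled circles for Tbr1-positive and open squares for other RGC-gated nuclei. The intervals of most libraries overlap, Tbr1-positive nuclei are deeper in all 8 libraries, and Jam2 is above the comparison in 5 of 8.

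The Tbr1 counts behind the choice were low. Of the 75 nuclei, 55 held 2 Tbr1 UMIs, 17 held 3 and 3 held 4. Just outside the threshold lay 547 nuclei that met every other limit and held 1 Tbr1 UMI. The 55 nuclei just inside had a median of 11140 UMIs and 3994 genes, against 8532 UMIs and 3435 genes just outside. A Jam2 UMI was present in 56.4% of the former and 51.4% of the latter. A further 10 RGC-gated nuclei with 2 or more Tbr1 UMIs were kept out by another limit, 8 by Cartpt, 1 by Foxp2 and 1 by the Opn4, Eomes and Tbx20 limit.

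Free RNA in droplets can give a UMI to a nucleus that does not use the gene. Among nuclei with no Rbpms or Slc17a6 UMI, 45 of 7983 (0.564%, median 3789 UMIs) held a Tbr1 UMI. Among nuclei with amacrine cell counts, meaning 2 or more UMIs of Gad1, Gad2 and Slc6a9 and under 2 of Rbpms and Slc17a6, 31 of 2488 (1.25%, median 5732 UMIs) did, and 1 of them held 2 or more. In RGC-gated nuclei the share was 3.11% at a median of 7120 UMIs. The shares with 1 Tbr1 UMI or more thus differed between the types, as did their depths, and nuclei with 1 Tbr1 UMI are a mixture that may hold such background.

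The nuclei carried RGC genes. All 17 genes of a pan-RGC list, which holds none of the genes of the choice, were detected in them, and their summed level was 1935 to 2903 CPM over the libraries, against 2055 to 2561 CPM in the other RGC-gated nuclei. Of 21 markers of other RGC classes 18 had UMIs in the 75 nuclei, and Mmp17, Penk and Zic1 had 0.

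Markers of other retinal classes were compared as sums over each list. Rod markers were 207 to 794 CPM against 275 to 812 CPM in the other RGC-gated nuclei, and amacrine markers, 5 of 6 with UMIs, were 341 to 534 CPM against 426 to 537 CPM. Bipolar markers, 6 of 7 with UMIs, were lower in all 8 libraries, at 116 to 312 CPM against 399 to 469 CPM. Cone markers were 0 to 42.3 CPM against 18.5 to 57.7 CPM and horizontal cell markers 60.2 to 304 CPM against 123 to 146 CPM. The ranges of the glial, vascular and microglial sums were wider than those of the other nuclei. Mueller glia markers were 44.9 to 308 CPM against 131 to 238 CPM, and endothelial markers, 2 of 4 with UMIs, were 0 to 56.8 CPM against 10.0 to 22.2 CPM. Oligodendrocyte markers, 3 of 5 with UMIs, were 0 to 31.2 CPM against 18.6 to 27.3 CPM. Astrocyte markers, 2 of 3 with UMIs, were 0 to 21.8 CPM against 3.93 to 8.56 CPM and were higher in 5 of 8 libraries. Microglia markers, 3 of 4 with UMIs, were 16.6 to 185 CPM against 55.5 to 112 CPM, with 44 UMIs of P2ry12 and 22 of Cx3cr1 in the 75 nuclei, neither of which was called against the other nuclei. Chat, Cabp5, Gfap, Cldn5, Ptprb, C1qa, Mog and Olig2 were the genes of these lists with 0 UMIs. The part of such RNA in the results that follow was not tested.

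To ask which genes set Tbr1-positive nuclei apart, counts were summed per library over the 75 nuclei and over the other RGC-gated nuclei and compared with edgeR's quasi-likelihood test, with the library as a term. Erbb4, the neuregulin receptor, was higher (297 ± 115 against 45.4 ± 4.19 CPM, SD, n = 8), and Ntng1 (netrin-G1) and its synaptic partner Lrrc4c (netrin-G ligand 1) were both higher. Of 23 tested glutamate receptor genes 9 fell and none rose, and Shisa9 and Shisa6, auxiliary subunits of AMPA receptors, and the synaptic adhesion gene Lrrtm4 fell too. To be called, a gene needed an adjusted p (Benjamini-Hochberg) below 0.05 together with a log2 difference of more than 0.5 in size. Of 15137 genes tested, 657 (4.34%) were called, 151 higher (0.998%) and 506 lower (3.34%). The median log2 fold change of all genes was -0.17, against which each value is to be read. With edgeR's relative log expression (RLE) factors in place of TMM factors the median was -0.05 and the split became 221 higher and 338 lower. The DESeq2 test called 123 higher and 174 lower. With each nucleus thinned to 2000 UMIs 10 of 10934 genes were called higher and 753 lower, with a median of -0.70.

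Besides Tbr1, depth differed between the compared nuclei in every library. Each Tbr1-positive nucleus was therefore also set against 5 other nuclei of its library with the nearest UMI totals, 375 in all, with a median of 12196 UMIs against 12177. There the median log2 fold change was 0.00, and 157 of 4547 genes (3.45%) were called, 60 higher (1.32%) and 97 lower (2.13%). The genes named next were also called in this depth-matched comparison, in the same direction, and had the same direction in all 8 libraries by the rule that chose them. Both comparisons share the 75 nuclei.

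Erbb4 (chr1:68071345-69147619, minus strand, GRCm39) stood at 250, 393, 186 and 126 CPM in the Tbr1-positive nuclei of the control libraries and at 469, 308, 257 and 384 CPM in those of the cKO libraries. Every one of these values lay above the range of the other RGC-gated nuclei, 40.9 to 52.4 CPM. The means were 297 ± 115 CPM and 45.4 ± 4.19 CPM (SD, n = 8), which is 2.61 on the log2 scale with a standard error of 0.14 (edgeR adjusted p = 4.87e-69). Against depth-matched nuclei the value was 2.64.

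Netrin-G1 and netrin-G ligand 1 bind each other across the synapse. Ntng1 (chr3:109687356-110051327, minus strand) ranged from 999.6 to 2279 CPM over the libraries in Tbr1-positive nuclei and from 537 to 615 CPM in the others, a rise of 1.25 on the log2 scale (SE 0.11) with an edgeR adjusted p of 1.19e-28. Lrrc4c (chr2:96148514-97462016, plus strand) ranged from 5498 to 14288 CPM against 4130 to 4697 CPM, a rise of 1.02 (SE 0.10) with an edgeR adjusted p of 3.26e-21. Neither pair of ranges overlapped. The lowest Lrrc4c value was that of control replicate 1, which rests on 4 nuclei.

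The remaining 9 of the 12 highest were a mixture of signalling and membrane genes. Sntg2, a syntrophin that scaffolds membrane proteins, rose by 1.47 on the log2 scale and Pdzrn3, a ubiquitin ligase with PDZ domains, by 1.24. Nxph1, a secreted ligand of neurexins, rose by 1.06, and Igf1, the insulin-like growth factor, by 0.91. Hpgd, which inactivates prostaglandins, rose by 0.93, and Kcnh1, a voltage-gated potassium channel, by 0.82. Greb1l, Stk32a and Slc35f3 rose by 1.10, 0.88 and 0.86. Among these 9 genes, 7 had library ranges apart from those of the other nuclei, while Sntg2 in cKO replicate 10 (76.3 CPM) and Slc35f3 in cKO replicates 11 and 13 (71.1 and 67.7 CPM) fell within them.

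Shisa9 was close to absent. It had 4 UMIs in the 75 nuclei, 8.11 CPM in control replicate 2, 23.7 CPM in cKO replicate 11 and 0 in the other 6 libraries, against 91.7 to 120 CPM in the other RGC-gated nuclei (log2 fold change -4.97, SE 0.39, edgeR adjusted p = 4.86e-34). Its relative Shisa6 had 16 UMIs and a mean of 11.5 ± 7.33 CPM against 95.2 ± 6.88 CPM. Lrrtm4, a leucine-rich postsynaptic protein, stood at 35.5 to 207 CPM in 7 libraries and at 698 CPM in cKO replicate 10, which is just under the lowest value of the other nuclei, 710 CPM.

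Zfp804b, a zinc finger gene, gave the smallest adjusted p among the named genes. It stood at 406, 44.6, 33.8 and 89.8 CPM in the control libraries and at 360, 23.7, 116 and 301 CPM in the cKO libraries, while the other RGC-gated nuclei held 1331 to 1652 CPM. The ranges were far apart (log2 fold change -3.51, SE 0.14, edgeR adjusted p = 2.37e-132), although the Tbr1-positive values varied widely among themselves. That SE and p-value do not reflect this gene's own spread in full. Chsy3, which extends chondroitin sulphate chains, had 11 UMIs in all and was 125 CPM in control replicate 1 and at most 12.2 CPM in the other libraries, against 157 to 191 CPM. The remaining named genes with lower levels were Myo10, Tmcc3, Gpc5, Arpp21, Fgf13 and Tafa1, whose log2 fold changes lay between -2.90 and -2.19.

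**Figure D2:**
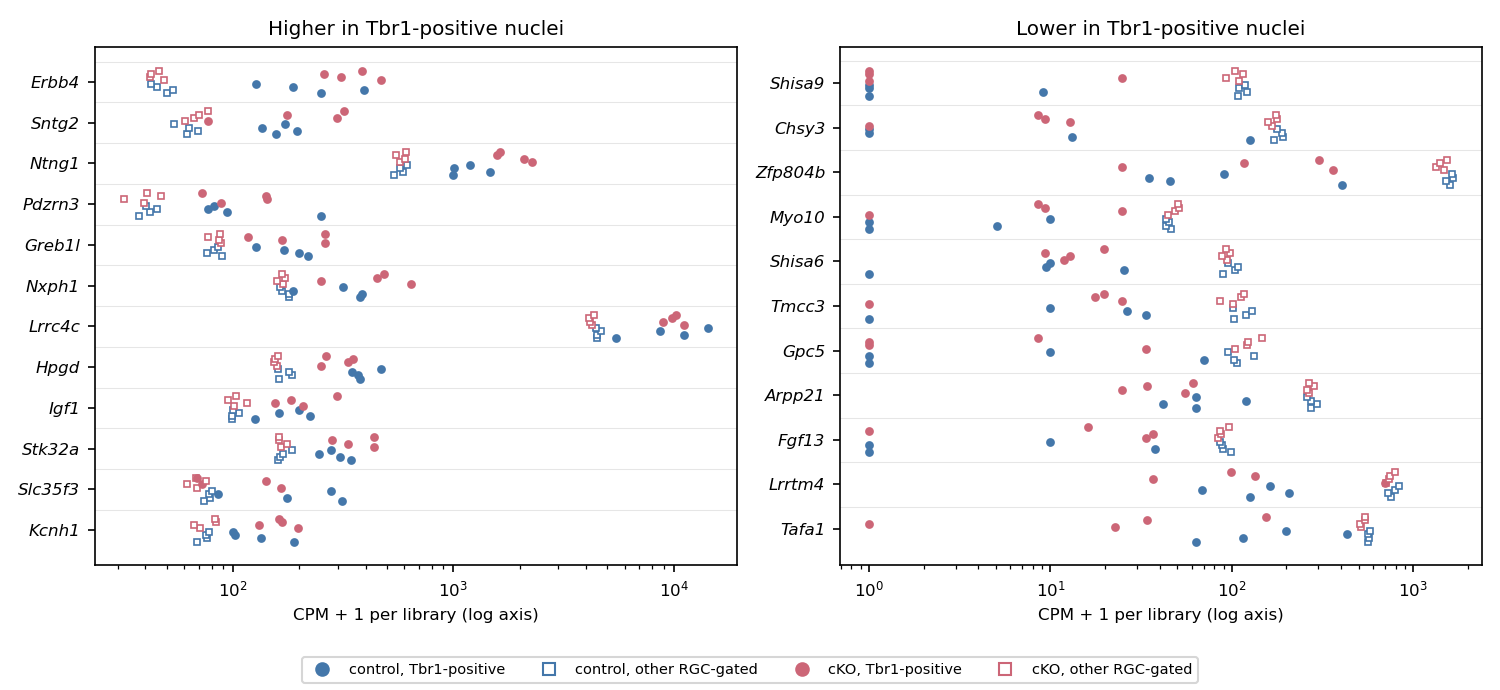
Levels of named genes in Tbr1-positive nuclei (filled circles) and other RGC-gated nuclei (open squares), as CPM + 1 on a log axis, 1 point per library, control in blue and cKO in red. In the left panel the circles lie to the right of the squares for Erbb4 (126 to 469 against 40.9 to 52.4 CPM), and in the right panel they lie to the left for Shisa9 and Zfp804b.

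Several genes called higher against all other nuclei were not called against depth-matched nuclei. Spp1, which encodes osteopontin and is an alpha RGC marker, Glra1, a glycine receptor subunit, and the transcription factor Etv1 rose by 1.93, 1.86 and 1.57 on the log2 scale against all other nuclei. Against depth-matched nuclei their values were 0.44, 0.60 and -0.41 (edgeR adjusted p = 0.569, 0.294 and 0.773). Meis2 and Cdh12 likewise went from 1.21 and 1.04 to 0.62 and 0.21. Matched nuclei held 75.8 CPM of Spp1 and 70.8 CPM of Etv1, against 24.3 and 16.2 CPM in all other nuclei. Isl1 (0.72 and 0.76), Zfhx3 (0.69 and 0.69), both transcription factors, and the cation channel gene Trpc6 (1.12 and 2.01) were called in both comparisons.

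Gene lists were read against the 4.34% of all genes called, 0.998% higher and 3.34% lower, and in the depth-matched comparison against 3.45%, 1.32% higher and 2.13% lower. Of 17 tested pan-RGC genes Isl1 rose and Gap43 fell, and against depth-matched nuclei Isl1 alone was called, of 14. Of 20 tested markers of other RGC classes 2 rose (Fes and Spp1) and 8 fell (list median -0.83), and against depth-matched nuclei none of 9 rose and 4 fell (list median -0.54). The Foxp2, Cartpt, Opn4, Eomes and Tbx20 limits held for Tbr1-positive nuclei and for neither comparison set. In this and the following lists, falls of genes of the classes kept out can therefore follow from the choice. Against other nuclei within the same limits 585 of 14643 genes were called, 146 higher and 439 lower. The lists were not read there. Of 10 tested genes linked with Tbr1 in the brain or retina, Ntng1 rose and Bcl11a, Bcl11b, Sox5, Cdh8, Reln and Grin2b fell (list median -0.68). Against depth-matched nuclei 2 of 8 rose (Ntng1 and Sorcs3) and 1 fell (Sox5, -1.29), with a list median of -0.10. Reln, Grin2b and Cdh8 were not called there (0.10, -0.28 and -0.43), and Bcl11a and Bcl11b were too low to test. Of 44 tested RGC transcription factors 5 rose (Etv1, Meis2, Isl1, Zfhx3 and Sox6) and 10 fell, with Bnc2, Ebf2 and Irx4 among those that fell (list median -0.15).

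Receptor genes are read here against the 0.998% of all genes that rose, the 3.34% that fell and the overall median of -0.17. Of 23 tested glutamate receptor subunits none rose and 9 fell, with Grm5, Grik3, Grin2a, Grik1, Gria1 and Grin2b among them (median -0.46). Of 9 acetylcholine receptors none rose and 4 fell (Chrm2, Chrna3, Chrna7 and Chrm3, median -1.06), and the muscarinic receptor Chrm2 had 2 UMIs in the 75 nuclei against 44.1 to 57.9 CPM in the others. Of 19 GABA and glycine receptor subunits 3 rose (Glra1, Gabrg1 and Glra2) and 6 fell. Against depth-matched nuclei, where 1.32% of genes rose and 2.13% fell, 5 of 19 glutamate receptor subunits fell and none rose, with Grm5 (-1.73), Grin2a (-1.44) and Grik1 (-1.38) called and Grin2b not. There 1 of 14 GABA and glycine receptor subunits rose (Glra2) and 2 fell, and of 3 acetylcholine receptors only Chrm3 was called (-1.01). Among 27 voltage-gated potassium channels 3 rose (Kcnh1, Kcnh2 and Kcnc4) and 3 fell, and among 30 sodium, calcium and HCN channels Scn4b rose and 5 fell.

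Adhesion genes were mixed, read against 0.998% of all genes higher and 3.34% lower, or 1.32% and 2.13% in the depth-matched comparison. Of 35 leucine-rich and teneurin genes 4 rose (Slitrk6, Ntng1, Ntng2 and Lrrc4c) and 5 fell, while against depth-matched nuclei 3 of 24 rose (Lrrc4c, Ntng1 and Nlgn1) and 3 fell. Of 31 immunoglobulin adhesion genes none rose and 6 fell, while against depth-matched nuclei 2 of 26 rose (Chl1 and Ncam2) and 3 fell. Of 11 non-clustered protocadherins none rose and 4 fell, while against depth-matched nuclei none of 7 rose and 2 fell (Pcdh7 and Pcdh9). Of 14 classical cadherins Cdh12 rose and Cdh6, Cdh13 and Cdh8 fell, of 51 axon guidance genes 3 rose and 5 fell, and of 11 neuropeptide genes Calca and Nxph1 rose and 3 fell. No classical cadherin was called among the 10 tested against depth-matched nuclei. Of 26 axon guidance genes tested there 3 rose (Unc5c, Sema5a and Ephb1) and 1 fell (Plxnc1), and of 2 neuropeptide genes Nxph1 rose and Bdnf fell. Of 9 mechanosensitive channel genes Trpc6 rose and Kcnk10 and Tmem63c fell, of 13 immediate early genes Nr4a3 and Fos fell, and none of 22 sterol and fatty acid synthesis genes was called.

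The 547 nuclei with 1 Tbr1 UMI, none of which took part in the choice as Tbr1-positive, gave a further reading. They were set against all 22343 RGC-gated nuclei with 0 Tbr1 UMIs, whether or not these met the other limits. Only 17455 of these did, so falls of genes of the classes kept out can follow from the choice. Of 15737 genes 702 (4.46%) were called, 258 higher (1.64%) and 444 lower (2.82%). Erbb4 rose by 2.20, Ntng1 by 1.27 and Lrrc4c by 1.05 on the log2 scale, and Zfp804b and Shisa9 fell by 1.67 and 1.22. Spp1, Glra1, Etv1, Meis2 and Cdh12 were called higher too, with no matching of depth. Some genes read otherwise than in the comparison of the 75 nuclei with all other nuclei. Cdh8 rose by 0.78 here, whereas in the 75 nuclei its value was -0.93 against all other nuclei and -0.43, not called, against depth-matched ones. Sorcs3 rose by 0.69, against 0.07, not called, and 0.83, called, in the same pair of comparisons. Of 32 immunoglobulin adhesion genes Chl1 rose and none fell, which is near the 4.46% of all genes called. In the 75 nuclei none of 31 rose and 6 fell, and against depth-matched nuclei 2 of 26 rose and 3 fell. The difference between these counts was not tested. The comparison nuclei are largely the same as before, so these values stand beside the earlier ones and are not independent of them. The 547 nuclei had a median of 8532 UMIs, against 6795 in the 17455 nuclei within the limits. No depth-matched comparison was made for the 547.

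A T-box factor binds DNA at the letters AGGTGTGA, so the 250 bases before the start site of each gene were searched on both strands for this run of letters (RefSeq windows, GRCm38.p6). It was present for 350 of 27025 genes (1.30%), for 91 of 10955 tested genes with a window (0.831%), for 3 of 112 genes higher in Tbr1-positive nuclei (2.68%) and for 5 of 359 lower genes (1.39%). The 3 higher genes were Lmo3, Mctp2 and Tmem144. None of the 18 named genes with a window held it. The shorter run GGTGTGA, which the longer one contains, was present for 3.52% of tested genes, 3.57% of higher and 4.46% of lower genes. Lmo3 and Mctp2 are shown as examples of where the letters fall, in capitals, both on the minus strand and read 5′ to 3′ toward the start of the gene. In Lmo3 (chr6:138581969-138582218) the run ends 9 bases before the start site, and in Mctp2 (chr7:72306596-72306845) it lies on the opposite strand and ends 146 bases before it.
Lmo3: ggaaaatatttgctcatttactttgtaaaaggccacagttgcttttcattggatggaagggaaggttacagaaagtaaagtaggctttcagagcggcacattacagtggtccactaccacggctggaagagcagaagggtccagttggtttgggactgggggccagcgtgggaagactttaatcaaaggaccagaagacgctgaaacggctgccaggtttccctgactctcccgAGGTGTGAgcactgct
Mctp2: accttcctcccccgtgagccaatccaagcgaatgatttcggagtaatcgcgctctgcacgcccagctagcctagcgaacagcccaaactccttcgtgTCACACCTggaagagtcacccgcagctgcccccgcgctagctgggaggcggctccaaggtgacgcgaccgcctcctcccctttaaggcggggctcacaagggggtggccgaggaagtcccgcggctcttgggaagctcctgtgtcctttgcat
Lmo3, a LIM-domain transcription cofactor, rose by 0.91 on the log2 scale in Tbr1-positive nuclei and was higher in 7 of 8 libraries. Against depth-matched nuclei Lmo3 was not called (0.75, edgeR adjusted p = 0.133). Mctp2, a membrane protein with C2 domains, rose by 2.05 and was higher in 5 of 8 libraries, on 10 UMIs in the 75 nuclei. It was too low to test against depth-matched nuclei, and DESeq2 did not call it (adjusted p = 0.101). Of its 10 UMIs 9 lay in the deepest subcluster of these nuclei, subcluster 2, described further on. Such a match is a description of the letters and not a binding site.

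Jam2 (chr16:84570764-84623269, plus strand), the junctional adhesion molecule that marks J-RGCs, was not uniformly present. It stood at 125, 130, 76.1 and 89.8 CPM in the Tbr1-positive nuclei of the control libraries and at 21.8, 94.8, 83.0 and 117 CPM in those of the cKO libraries, against 92.6, 95.3, 94.8 and 74.2 CPM and 76.9, 77.7, 97.8 and 85.1 CPM in the other nuclei. The Tbr1-positive value was above its own library's other nuclei in 5 of 8 libraries, and the lowest was that of cKO replicate 10. The means were 92.1 ± 34.6 and 86.8 ± 9.50 CPM (SD, n = 8), and the difference of 5.31 CPM was smaller than the spread between libraries (exact paired permutation test, two-sided, p = 0.680). It was 24.4 CPM against depth-matched nuclei (exact permutation p = 0.164), 21.2 CPM with each nucleus thinned to 2000 UMIs (p = 0.375, same exact test) and 0.996 CPM against other nuclei within the same Foxp2, Cartpt, Opn4, Eomes and Tbx20 limits (p = 0.977, same exact test). The difference varied with the Tbr1 threshold, at 32.3 CPM for nuclei with at least 1 Tbr1 UMI (exact permutation p = 0.00781) and -10.9 CPM for those with at least 3 (p = 0.742, same exact test). Most nuclei with at least 1 are those with 1 Tbr1 UMI, which may hold background, and no trend was tested. A Jam2 UMI was found in 42 of the 75 nuclei (56.0%), in 45.9% of depth-matched nuclei and in 39.3% of all other RGC-gated nuclei. In the 547 nuclei with 1 Tbr1 UMI, Jam2 rose by 0.53 on the log2 scale against all RGC-gated nuclei with 0 (edgeR adjusted p = 4.07e-07). A Jam2 UMI was found in 51.4% of the 547, against 39.3% of nuclei within the limits with 0 Tbr1 UMIs.

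The 75 nuclei fell into groups that differed in their leading genes. They were clustered on their most variable genes, with Tbr1, the other genes of the choice, Jam2 and Piezo2 kept out. Each gene was first centred and scaled within its library. This takes out part of any difference in mixture between libraries, so presence in many libraries can follow in part from it. Leiden clustering at a resolution of 0.3 gave subclusters of 39, 21 and 15 nuclei, and at 0.6 the largest separated into 25 and 14. The levels that follow are sums over the nuclei of a subcluster across libraries, described with no test because the same nuclei defined the subclusters, and the genes were chosen by the size of the difference. Median depth differed among them, from 8185 UMIs in subcluster 1 to 20897 in subcluster 2.

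Subcluster 1 (25 nuclei, all 8 libraries) was led by Mid1, a microtubule-binding ubiquitin ligase, at 985 CPM against 43.8 CPM in the rest, and by Sorcs3 at 1092 against 60.3 CPM. Cdh20 (386 against 14.2 CPM) and Plpp4, a lipid phosphatase (120 against 1.18 CPM), were further leading genes. Jam2, although kept out of the clustering, stood at 333 against 36.7 CPM and had a UMI in 22 of 25 nuclei. Cdh8 was 169 against 15.4 CPM. Erbb4, whose rise over all Tbr1-positive nuclei was the largest among the named genes, had 1 UMI in these 25 nuclei.

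Subcluster 4 (14 nuclei, 7 libraries) was led by Hs3st4, a heparan sulphate sulphotransferase (1261 against 48.8 CPM), Kirrel3, an adhesion protein (1881 against 101 CPM), and Cntnap5a (1645 against 135 CPM). It held 836 CPM of Erbb4, found in 13 of 14 nuclei, and a Jam2 UMI in 7 of 14.

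Subcluster 2 (21 nuclei, all 8 libraries) was led by Frmd5 (1405 against 41.8 CPM), Spp1 (238 against 0 CPM, in 21 of 21 nuclei) and Glra1 (247 against 1.61 CPM), with Cdh12 (1384 against 166 CPM) and Etv1 (127 against 0 CPM). Erbb4 stood at 476 CPM and Ntng1 at 2506 CPM, against 208 and 853 CPM in the rest. Jam2 was found in 6 of 21 nuclei, although these were the deepest.

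Subcluster 3 (15 nuclei) was led by Gabrg3, a GABA receptor subunit (2380 against 23.1 CPM), Zeb2 (670 against 35.2 CPM), Grin2a (847 against 79.0 CPM) and Sox5 (177 against 0 CPM). It was present in 6 libraries and absent from control replicate 1 and cKO replicate 10, which held 4 and 7 Tbr1-positive nuclei. Erbb4 was 16.1 CPM and Cdh8 had 0 UMIs. Hs6st3, at 488 against 19.4 CPM, had UMIs in only 8 of the 15. Lrrc4c was present in every nucleus of all 4 subclusters, at 8609 to 14085 CPM.

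**Figure D3:**
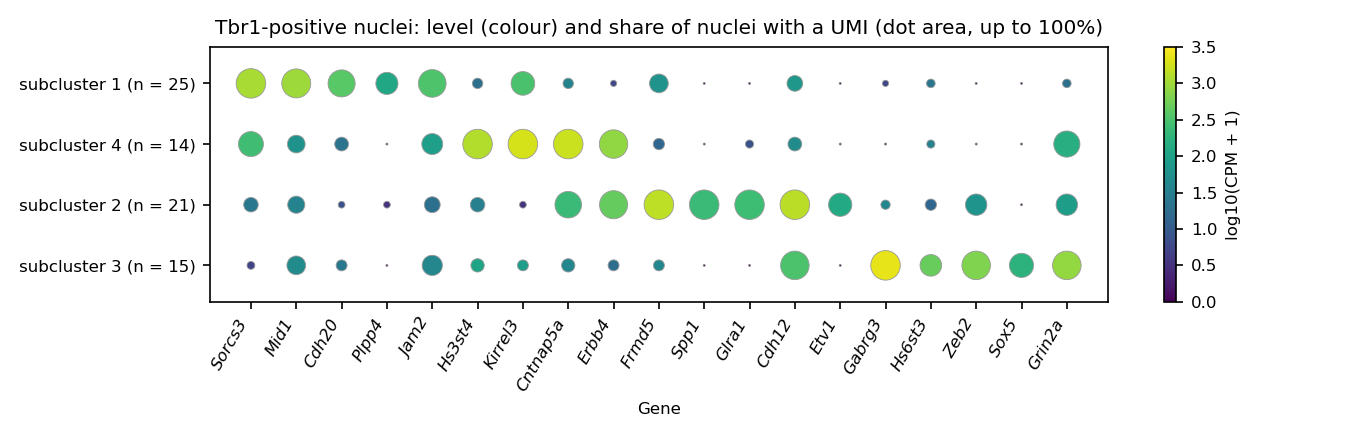
Leading genes of the 4 subclusters of Tbr1-positive nuclei. Colour gives the level as log10(CPM + 1) over the nuclei of a subcluster and dot area the share of its nuclei with a UMI. Jam2, Mid1 and Sorcs3 are high in subcluster 1 (333, 985 and 1092 CPM), Spp1 and Glra1 are seen in subcluster 2, Gabrg3 in subcluster 3, and Erbb4 in subclusters 4 and 2.

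Whether genes went with Jam2 among Tbr1-positive nuclei was first asked within the 75. Comparing the 42 Jam2-positive with the 33 Jam2-negative nuclei, 0 of 766 genes were called with edgeR, 128 had an unadjusted p under 0.05, and DESeq2 called 8. The 547 nuclei with 1 Tbr1 UMI allowed a larger comparison, chosen after the smaller one had been seen. Of these, 281 were Jam2-positive (median 8739 UMIs) and 266 Jam2-negative (median 8200.5 UMIs). A nucleus counted as Jam2-positive from 1 Jam2 UMI on, and the part of free RNA in these UMIs was not tested. With edgeR 246 of 5650 genes (4.35%) were called, 145 higher (2.57%) and 101 lower (1.79%) in Jam2-positive nuclei. Since Jam2 divides other RGCs too, the same division was made in nuclei within the limits with 0 Tbr1 UMIs, 6858 against 10597. There 378 of 15787 genes (2.39%) were called, 152 higher (0.963%) and 226 lower (1.43%). The difference between the divisions was then tested as an interaction, which called 209 of 13410 genes (1.56%), 106 higher (0.79%) and 103 lower (0.768%).

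Cadherins stood on both sides. Cdh8 (chr8:99751103-100144308, minus strand) was 155, 225, 481 and 156 CPM in Jam2-positive nuclei of the control libraries with 1 Tbr1 UMI and 146, 241, 152 and 304 CPM in those of the cKO libraries. In Jam2-negative nuclei it was 128, 80.7, 26.0 and 46.6 CPM, and 74.5, 107, 62.5 and 64.2 CPM, so that the groups did not overlap. On the log2 scale the difference was 1.73 with an SE of 0.23 (edgeR adjusted p = 1.84e-05). In nuclei with 0 Tbr1 UMIs it was 0.15, and the interaction was 1.66 (edgeR adjusted p = 6.11e-06).

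Cdh12 (chr15:20449351-21589622, plus strand) went the other way. It was 127 to 357 CPM in Jam2-positive and 369 to 868 CPM in Jam2-negative nuclei with 1 Tbr1 UMI, and lower in all 8 libraries (log2 fold change -1.20, SE 0.16, edgeR adjusted p = 1.84e-05). It was 0.04 in nuclei with 0 Tbr1 UMIs, with an interaction of -1.23 (edgeR adjusted p = 3.94e-08). Of the 10 classical cadherins tested, Cdh8, Cdh20 and Cdh4 rose with Jam2 and Cdh12, Cdh7 and Cdh11 fell, against 4.35% of all genes called in this division. The interaction was called for Cdh8, Cdh20, Cdh4 and Cdh12, and was not called for Cdh7 (-0.15) and Cdh11 (-0.35, edgeR adjusted p = 0.0519).

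Spp1 showed opposite signs. It fell by 1.06 with Jam2 in nuclei with 1 Tbr1 UMI (38.9 ± 25.4 against 83.1 ± 45.5 CPM, SD, n = 8) and rose by 0.86 with Jam2 in nuclei with 0 Tbr1 UMIs (33.5 ± 19.5 against 18.9 ± 7.12 CPM). The interaction was -1.89 (edgeR adjusted p = 5.46e-05). The Jam2-positive and Jam2-negative library values overlapped in nuclei with 1 Tbr1 UMI, and 1 of 8 libraries went against the direction.

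The strongest rises with Jam2 were those of Kcnmb2, an auxiliary subunit of calcium-activated potassium channels (2.87), Plpp4 (2.14), Slc7a11, a cystine transporter (1.90), Myo5b, a motor protein (1.86), Sash1 (1.81), Mid1 (1.77) and Tmem132c (1.71). The interaction was called for Kcnmb2, Sash1, Mid1 and Tmem132c, and was not called for Plpp4, Slc7a11 and Myo5b. Sorcs3 rose by 1.36 in nuclei with 1 Tbr1 UMI and by 0.93 in those with 0, and the difference of 0.43 was not called (edgeR adjusted p = 0.118). The strongest falls were those of Prkd1 (-1.31), Manba (-1.25), Frmd5 (-1.22), Cdh12, Cntnap4, Chst9, E2f3 and Cdh7 (-1.09). Frmd5 was 251 ± 72.3 CPM against 597 ± 210 CPM (SD, n = 8).

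The leading genes of the subclusters, found in the 75 nuclei, were then read in the 547. Of the leading genes of subcluster 1 other than Jam2, 9 of 9 tested were higher in Jam2-positive nuclei, against 2.57% of all genes tested. Of those of subcluster 2, 9 of 9 tested were lower, against 1.79% of all genes tested. For subcluster 3, 4 of 10 were lower, and for subcluster 4, 1 of 9. The interaction with the division at 0 Tbr1 UMIs, called for 1.56% of all genes, was called for 6 of 9 leading genes of subcluster 1, 7 of 10 of subcluster 2, 1 of 10 of subcluster 3 and 2 of 10 of subcluster 4, of which 1 was higher and 1 lower. The nuclei are separate from the 75, but the libraries are the same.

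**Figure D4:**
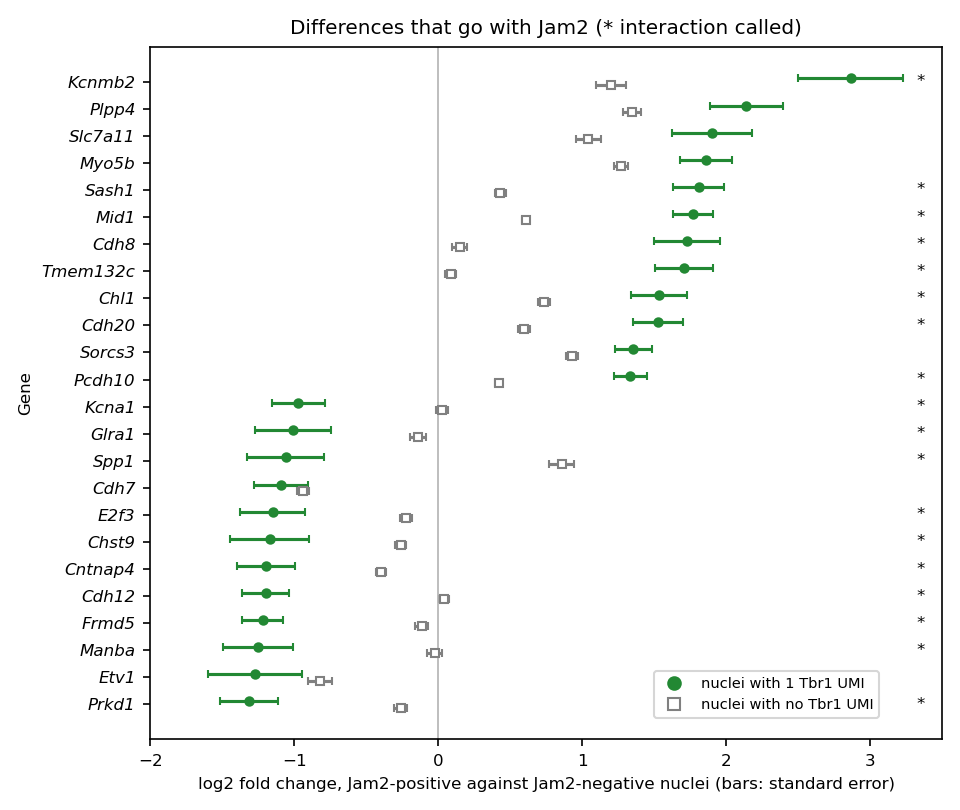
Log2 fold changes between Jam2-positive and Jam2-negative nuclei for 24 genes, in nuclei with 1 Tbr1 UMI (filled green circles) and with no Tbr1 UMI (open squares), with standard errors as bars. A star marks genes for which the difference between the divisions was called. Cdh8 is at 1.73 against 0.15, Cdh12 at -1.20 against 0.04, and Spp1 lies on opposite sides of 0.

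The design also asks whether the cKO changed these cells. Tbr1-positive nuclei made up 0.150%, 0.468%, 0.226% and 0.494% of RGC-gated nuclei in the control libraries and 0.265%, 0.220%, 0.271% and 0.676% in the cKO libraries. The groups overlapped, with the highest share in cKO replicate 13 (95% Wilson interval 0.403% to 1.13%). The means were 0.335% ± 0.172 and 0.358% ± 0.213 (SD, n = 4 each), and the difference of 0.0234 percentage points was within the spread (exact permutation test, two-sided, p = 0.914). The smallest p this design allows is 0.0286, and the sign of the difference turned without control replicate 1, control replicate 3 or cKO replicate 13 (-0.0383, -0.0127 and -0.0828 points).

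The targeted gene was scarcely detected. Piezo2 gave 0, 1, 0 and 1 UMIs in the Tbr1-positive nuclei of the control libraries and 0, 1, 1 and 2 in those of the cKO libraries, and 5 of the 75 nuclei held a UMI (6.67%, against 6.51% of other RGC-gated nuclei and 42 of the 375 depth-matched nuclei, 11.2%). All 8 of these sums lie below the 3-UMI floor of their library, so a difference between cKO and control in the 75 nuclei was not detectable at this depth. The means were 3.26 ± 4.27 and 6.92 ± 4.98 CPM (SD, n = 4 each, exact permutation test, two-sided, p = 0.400). In the other RGC-gated nuclei Piezo2 was 11.7 to 17.8 CPM in control and 8.55 to 14.6 CPM in cKO libraries. The 75 nuclei therefore cannot serve as a check of the labels. Depth is not the only limit, since the counts cover the whole gene whereas the cKO removes part of it. The paper also reports Olig2 expression as absent in the retina. In the nuclei with 1 Tbr1 UMI Piezo2 fell by 1.64 on the log2 scale (edgeR adjusted p = 2.70e-06). The comparison was all RGC-gated nuclei with none, including those past the other limits.

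The share of Jam2-positive nuclei among Tbr1-positive nuclei was 75.0%, 82.4%, 42.9% and 37.5% in the control libraries and 28.6%, 62.5%, 40.0% and 57.1% in the cKO libraries. The groups overlapped, and the difference of -12.4 percentage points was within the spread (exact permutation test, two-sided, p = 0.400). The subclusters were shared too, which the centring and scaling of genes within each library can favour. The shares that follow therefore cannot settle whether the mixture differed between genotypes. Subcluster 2 made up 20.3% ± 8.21 of control and 33.4% ± 7.68 of cKO Tbr1-positive nuclei (SD, n = 4 each, exact permutation test p = 0.0857, adjusted over 3 subclusters 0.257). For the groups of 39 and 15 nuclei the shares were 57.3% ± 12.5 against 51.8% ± 3.57 and 22.4% ± 16 against 14.8% ± 10.8 (exact permutation p = 0.714 and 0.457).

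No gene was called between cKO and control within Tbr1-positive nuclei. With edgeR 0 of 2232 genes passed, 129 had an unadjusted p under 0.05, and DESeq2 called 0. On simulated counts with the same library sizes the fit recovered 96.0% of genes raised and 96.8% of genes lowered 4-fold, and 30% of genes raised and 38.2% of genes lowered 2-fold, among genes abundant enough to be tested. The simulation gave every gene the same fixed spread and every library the same mixture of types. The real sums held few nuclei in a mixture that varied between libraries, so these rates may be too high for them. In the nuclei with 1 Tbr1 UMI, 0 of 8679 genes were called (344 with an unadjusted p under 0.05). The test of whether the genotype difference itself was another in Tbr1-positive than in other RGC-gated nuclei called 13 of 15137 genes (0.0859%), 4 higher (0.0264%) and 9 lower (0.0595%). Without control replicate 3 it called 0, and with nuclei holding at least 1 Tbr1 UMI it also called 0.

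The genes behind these calls were in part those of the subclusters. Cdh12 and Meis2 were higher in cKO, at 359 and 350 CPM in control means against 806 and 764 CPM. Cdh12 is a leading gene of subcluster 2, and neither gene was called against depth-matched nuclei. Hs6st3 was 811 CPM in control replicate 3, 207 CPM in control replicate 4 and 0 to 49.8 CPM in the other 6 libraries. Arhgap15 and Pcsk6 were 161 and 169 CPM in control replicate 3 and at most 8.11 CPM elsewhere. For Arhgap15 and Pcsk6 nearly all UMIs came from that library of 7 nuclei, and leaving it out removed all 13 calls, those of Cdh12 and Meis2 included. With 4 to 17 nuclei in a library, a change in level within a type and a change in the mixture of types cannot be told apart.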

How the data were processed

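Retinal nuclei of 8 libraries, 4 control and 4 cKO by their labels, were measured by droplet-based snRNA-seq. For every gene and barcode the authors deposited unnormalized UMI counts, made with Cell Ranger 7.0.0 on the GRCm39 reference per the study's methods. All barcodes are listed. Removal of free RNA, quality filters, doublet removal and cell annotation of the study are not in these counts and were not used here, so nuclei were rebuilt by the limits given in the text and may differ from those of the study. Library totals were 35697629 to 60088630 UMIs.

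Counts were summed per library. Sums were tested in R 4.3.3 with edgeR 4.0.16 (glmQLFit, TMM factors, filterByExpr), with the library as a term where parts of a library were compared, and adjusted by Benjamini-Hochberg over all genes tested. Single values were compared by exact permutation, 70 assignments of libraries or 256 sign flips. Subclusters came from leidenalg 0.10.2 on 1000 variable genes standardised within libraries, 10 components (scikit-learn 1.9.0) and 10 neighbours. Scrublet doublet scores came from scanpy 1.11.5. The genes leading a subcluster were ranked by the ratio of CPM with 20 CPM added, among genes seen in at least 50% of its nuclei. Sequence windows came from RefSeq, and gene positions on GRCm39 from the GENCODE annotation. The fit was tested on simulated data with known changes, the same fixed spread for every gene and the same mixture of types in every library. In the simulation of Tbr1-positive against other nuclei (14810 genes) it recovered 73.5% of genes raised and 49% of genes lowered 4-fold, 16.7% of genes raised and 12.2% of genes lowered 2-fold, and called 0.075% of unchanged genes.

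The members and gene lists were chosen with earlier results of these data known. The named genes were the 12 called genes with the largest log2 fold changes in each direction, with at least 20 CPM in the higher part, the same direction in all 8 libraries and a call against depth-matched nuclei, plus genes of 28 lists. Some genes that met this rule are not reported here. In the comparison of Jam2-positive and Jam2-negative nuclei with 1 Tbr1 UMI, which was added after the data were seen, the 8 largest in each direction were taken with no depth condition. For the interaction with genotype at most 5 called genes in each direction were taken, 8 in all, leaving out clone names. The comparison of genotypes within Tbr1-positive nuclei was planned on libraries with more than 10 such nuclei, which left 1 library in each group, and was therefore fitted on all 8. Alternatives covered scaling by RLE factors in edgeR, no filter on low counts, DESeq2 1.42.0, and other UMI, Tbr1 and Jam2 thresholds. Further ones were thinning to 2000 UMIs, other comparison nuclei, removal of the highest Scrublet scores, control libraries alone and each library left out.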

Additional observations from a re-analysis of the deposited data

Results flagged for a closer look

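Among 56 groups of 4 libraries whose named values were examined, 8 held a library far from the other 3 by Dixon's criterion, where chance alone gives about 1 in 20. In cKO replicate 13 the share of Tbr1-positive nuclei was 0.676% of RGC-gated nuclei, against 0.220% to 0.271% in the other cKO libraries. Control replicate 1, with 4 nuclei, stood apart for Pdzrn3 (250 CPM, against 76.1 to 93.3 CPM in the other control libraries), Chsy3 (125 against 0 to 12.2 CPM) and Zfp804b (406 against 33.8 to 89.8 CPM). Control replicate 2 stood apart for Gpc5 (68.9 against 0 to 8.98 CPM) and for Shisa9, where 8.11 CPM stood against 0 in the others. Shisa9 was likewise 23.7 CPM in cKO replicate 11 and 0 in the other cKO libraries. With the other 3 libraries at 0 any single UMI meets the criterion, and both Shisa9 values are 2 UMIs, below the 3-UMI floors of 12.2 and 35.5 CPM of their libraries. The rate of 1 in 20 does not hold for counts as low as these. Lrrtm4 was 698 CPM in cKO replicate 10, against 35.5 to 133 CPM in the other cKO libraries.

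The genotype difference was tested as another in Tbr1-positive than in other RGC-gated nuclei, as an interaction in edgeR's quasi-likelihood fit. The difference in log2 fold change was 1.49 for Zfp804b, 1.27 for Meis2 and 1.01 for Cdh12 (adjusted p = 0.00606, 0.000395 and 0.0239). It was -1.57 for Tnr, -2.05 for Sag and -3.05 for Hs6st3 (adjusted p = 0.000367, 0.0248 and 1.11e-09). The fitted values for Pcsk6 (-4.72) and Arhgap15 (-12.08) come from genes with 0 UMIs in most of the Tbr1-positive sums, depend on the fit's prior count and are no estimate of size. Sag, a rod gene, was 203 CPM in control replicate 3 and 8.30 to 93.7 CPM in the other libraries, and Tnr was 693 CPM there and 63.9 to 375 CPM in the others. The part that the contents of this library play was not tested beyond leaving it out.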

How the results depend on the processing

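The share of Tbr1-positive nuclei, cKO minus control, was -0.00356 percentage points with at least 3 Tbr1 UMIs, -0.0913 with at least 1 and -0.0223 when nuclei were thinned before the Tbr1 threshold, and -0.0828 to 0.0765 with a library left out (negative without control replicate 1, control replicate 3 or cKO replicate 13). The Jam2 difference was -10.9 CPM with at least 3 Tbr1 UMIs, 32.3 CPM with at least 1 (exact permutation p = 0.00781, the smallest this test can give) and 1.14 to 13.9 CPM with a library left out. The Jam2-positive share, cKO minus control, was -19.7 to -4.73 points and the Piezo2 difference 2.01 to 5.96 CPM with a library left out, while Piezo2 was -9.97 CPM with at least 3 Tbr1 UMIs and 0 after thinning. None of these single values except Jam2 with at least 1 Tbr1 UMI passed its test.

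Between Tbr1-positive and other nuclei 297 genes were called by DESeq2, 428 with at least 3 Tbr1 UMIs, 218 in control libraries alone, 157 against depth-matched nuclei and 479 to 656 with a library left out. Thinning gave 763, 10 higher and 753 lower, with a median log2 fold change of -0.70. For genotype within Tbr1-positive nuclei 14 genes were called with no filter and 0 to 1 with a library left out. For the interaction with genotype 6 were called without doublets, 6 with at least 3 Tbr1 UMIs, 0 with at least 1, and 0 to 30 with a library left out (30 without control replicate 2, 0 without control replicate 3, 5, 8 and 2 without cKO replicates 10, 12 and 13). For Jam2 within the 75 nuclei 51 were called with no filter, 8 by DESeq2, 298 with at least 1 Tbr1 UMI, 7 after thinning, 3 in control libraries, 52 with at least 2 Jam2 UMIs, and 0 to 51 with a library left out, with 51 without cKO replicate 10 and 0 otherwise. In nuclei with 1 Tbr1 UMI, thinning gave 388 calls and leaving a library out 636 to 708. The Jam2 comparison there gave 147 by DESeq2, 81 after thinning, 134 in control libraries and 181 to 263 with a library left out, and its interaction 46 after thinning, 100 in control libraries and 149 to 222. The cause of these differences was not tested.

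Among named genes, Hpgd was -0.38 with at least 3 Tbr1 UMIs and Kcnh1 -0.13 after thinning. In the interaction with genotype at 1 Tbr1 UMI or more, Zfp804b was -0.25, Arhgap15 1.67, Pcsk6 1.10 and Hs6st3 0.30. Over all alternatives the named genes kept direction and call against other nuclei 462 times, lost the call 16 times and turned 2 times. The rule that named them required a call against depth-matched nuclei and the same direction in every library. That reading was thus fixed by the choice, and the fits with a library left out reuse the same sums. For the interaction with genotype these counts were 58, 42 and 4. In the Jam2 comparison at 1 Tbr1 UMI 208 were kept and 4 lost, and in its interaction 187 kept their side of the threshold, 32 lost the call and 5 gained it. The Jam2 comparison itself holds no reading for some genes and alternatives. After thinning only 1119 genes were tested in it, against 5650 in the main fit. No paired analysis was possible because the replicate numbers of control and cKO libraries do not overlap.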
